A study of Danio rerio with 18 samples.

Results

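A sham operation opens the body wall and exposes the zebrafish heart without injuring it, and its effect on the ventricle was compared here between fish with and without the transcription factor gene tcf21. The quantity of interest was the difference of the sham responses: sham against uninjured ventricles in the conditional knock-out (cKO), minus sham against uninjured ventricles in the control. It was computed for each of 20462 genes tested from 12 of the study's 18 RNA libraries, 3 in each of 4 groups. The remaining 6 libraries, from cryoinjured ventricles, are not part of the contrast. They entered the gene filter, the scaling and the estimate of the spread between replicates. A positive difference means a higher value of the sham response in the cKO, and a negative difference a lower one.

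All fish were adults of the same genotype, tcf21vln18/vln18 (floxed), Tg(ubbR:CreERT2*)vln2 and TgBAC(tcf21:DsRed2)pd37, which combines a ubiquitously driven, inducible Cre recombinase with a red reporter under tcf21 regulatory sequence. Uninjured control and sham control fish carry the treatment label "-". Uninjured cKO and sham cKO fish were bathed in 5 µM 4-Hydroxytamoxifen for 24 h on 3 occasions, and hearts were collected uninjured or operated on 12 days after the first bath. Sham ventricles were taken 3 days after the operation, and each library pools 2 to 3 ventricles. Exposure to the drug and loss of the gene therefore cannot be told apart, the driver acts in all tissues, and the labels give neither what control fish received in place of the drug nor the time of day of collection. Sham cKO ventricles were also taken 3 days later after the first bath than uninjured cKO ventricles. In the cKO arm, sham and time since the drug and deletion therefore cannot be told apart. Nothing states whether libraries of a group came from separate clutches, so p-values measure only the spread between these libraries.

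The protein encoded by tcf21 is a basic helix-loop-helix factor of the epicardium, the cell layer that covers the heart. In zebrafish the epicardium is activated after cardiac damage, when its cells divide, deposit a fibronectin-rich provisional matrix and give rise to fibroblasts and mural cells. Opening of the pericardial sac without injury also triggers part of this programme, so a sham group separates the effect of surgery from that of a wound.

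The 12 libraries held 124919844 to 191085931 estimated counts, with 18071 to 20251 genes detected in each. Replicates varied more in the uninjured than in the sham groups: the biological coefficient of variation common to all genes was 0.597 for uninjured and 0.382 for sham control libraries, and 0.574 and 0.405 for those of the cKO, so the uninjured groups limit the precision of the difference. Control uninjured replicate 1 stood apart by its scaling factor, 0.7687, and cKO uninjured replicate 1 by its cell cycle genes, described with them. The 3 uninjured control libraries and sham control replicates 1 and 2 were sequenced in lane 2, and sham control replicate 3 and all cKO libraries in lane 4. The ventricular muscle gene myl7 lay at 11076.0 to 19509.4 counts scaled to library size (CPM) in all 12. The 18 skeletal muscle markers tested summed to 3416.6 to 14195.2 CPM, from acta1a, acta1b and ckma in the main, and each other member averaged at most 4.46 CPM.

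The targeted gene behaved as labelled in every library. Transcripts of tcf21 (ENSDARG00000036869, chr23:31554269-31555696, GRCz11, minus strand) measured 7.35, 6.28 and 10.6 CPM in uninjured control and 15.8, 18.9 and 15.2 CPM after sham. In the cKO they measured 0.411, 0.82 and 0.891 CPM before and 0.674, 0.91 and 0.8 CPM after sham, below all control libraries. After sham the gene rose in control (log2 fold change 1.04, SE 0.25, adjusted p = 0.0182), while the cKO response was 0.17 (SE 0.26, adjusted p = 0.906). Its difference of responses, −0.87 (SE 0.36, adjusted p = 0.481), did not pass the test.

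The difference of responses passed the test for 5 genes, 0.0244% of those tested, at an adjusted p below 0.05 in edgeR's quasi-likelihood test with Benjamini-Hochberg adjustment. It was positive for 2 of them (0.00977%) and negative for 3 (0.0147%). At an unadjusted p below 0.05 there were 1883 genes (9.2%), 863 with a higher value in cKO (4.22%) and 1020 with a lower one (4.98%). The sign alone was positive for 49.9% and negative for 50.1% of all genes, with a median of −0.00. With the 12 libraries fitted alone no gene passed, against 1265 at an unadjusted p below 0.05, and the Wald test of DESeq2 called 247. Without sham control replicate 3, which leaves each arm within 1 lane, 4 of the 5 still passed, all but cyp2k8.

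Each arm had a response of its own. In control 1562 genes (7.63%) changed after sham, 984 upwards (4.81%) and 578 downwards (2.82%). In cKO 214 genes changed (1.05%), 191 upwards (0.933%) and 23 downwards (0.112%). Called genes are not counted as particular to an arm here, since only the difference of the responses tests that.

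Genes called in control had smaller values in the cKO, in the same direction for most. The 984 that rose in control had a median log2 fold change of 1.57 there and of 0.52 in cKO, where 822 of them (83.5%) had a positive value. The 578 that fell had medians of −0.88 and −0.24, and 476 (82.4%) were also negative in cKO. The 191 genes that rose in cKO had medians of 1.85 there and 1.73 in control, with 188 (98.4%) positive in control. Choosing genes by the test in 1 arm raises their values in that arm, and the arms share no library. Both arms called 151 rising genes, 15.3% of the control list and 79.1% of the cKO list, and 12 falling genes, 2.08% and 52.2%. Only ftr25 was called in both arms in opposite directions. Within lanes, again without sham control replicate 3, 625 genes rose in control, with medians of 1.80 and 0.69. Without uninjured control replicate 3 the 1341 that rose in control had a cKO median of 0.34.

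**Figure D1:**
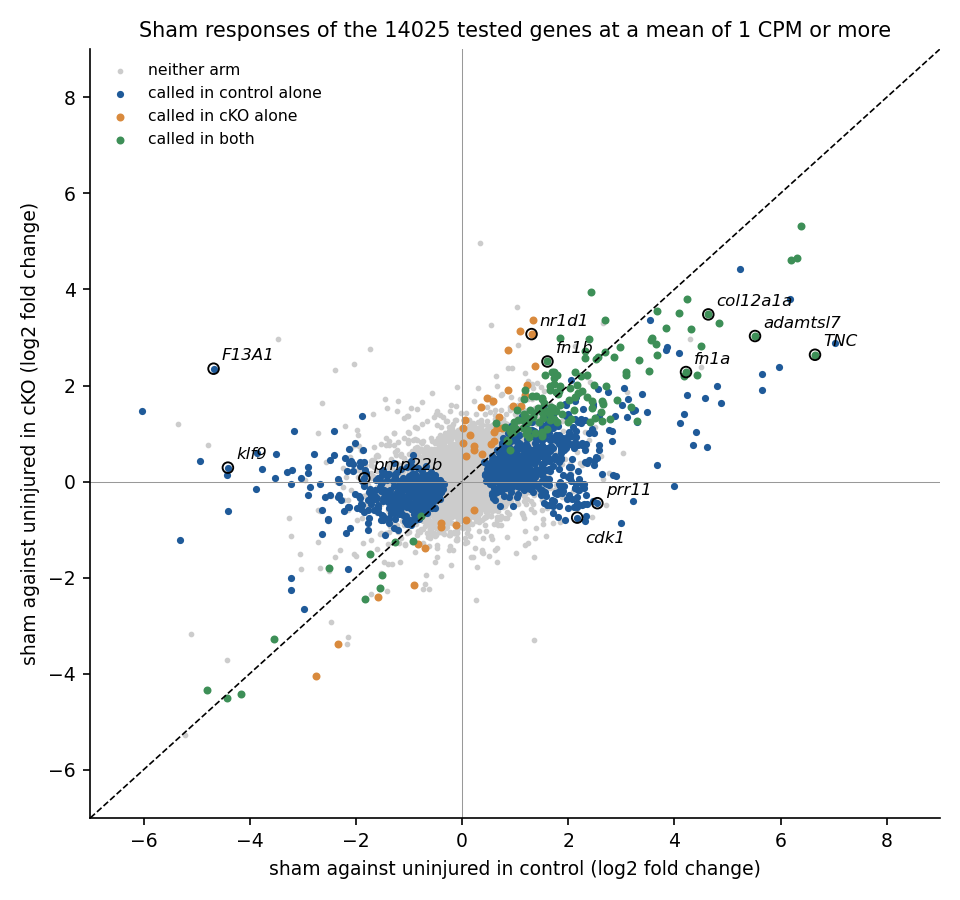
Log2 fold change of sham against uninjured in control (horizontal axis) and in cKO (vertical axis) for 14025 tested genes, those averaging 1 CPM or more. The dashed line marks equal responses. TNC, fn1a and adamtsl7 lie far right and below the line, nr1d1 and fn1b above it, and most genes called in control alone lie closer to the horizontal axis than to the line. Of the 14025 genes, 5 lie outside the axes.

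A difference of responses has 2 components, cKO against control after sham and cKO against control in uninjured ventricles, which share their libraries with it. After sham cKO and control differed for 3 genes (0.0147%), all lower in cKO: tcf21, TNC and adamtsl7. In uninjured ventricles they differed for 27 genes (0.132%). All uninjured control libraries were sequenced in lane 2 and all uninjured cKO libraries in lane 4. Lane and cKO therefore cannot be told apart in the uninjured comparison. Among the 1020 genes with a lower sham response in cKO at an unadjusted p below 0.05, the median of cKO against control was 0.86 in uninjured ventricles and −0.42 after sham. For 698 of them (68.4%) the uninjured component was the larger. Among the 863 with a higher response the medians were −0.62 and 0.50, and the uninjured component was the larger for 516 (59.8%). Of the 1020, 648 had opposite signs in the arms, with medians of 0.97 in control and −0.34 in cKO, and 361 had the same sign and a smaller size in cKO, with medians of 1.9 and 0.36. The same shares were not computed over all genes, and uninjured replicates varied more than sham replicates. These shares are therefore not taken as particular to the genes selected. Values in the uninjured groups enter every statement on a sham response, and they are given for the genes described in most detail.

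Tenascin C was the called gene with the highest expression. The matricellular glycoprotein tenascin C is laid down in wounds and remodelling tissue, where it loosens the attachment of cells to fibronectin. TNC (ENSDARG00000021948, chr5:28560847-28679135, minus strand) measured 0.305, 1.02 and 0.74 CPM in uninjured control and 74.2, 75.1 and 60.5 CPM in sham control. In cKO it measured 1.09, 0.635 and 0.469 CPM before and 3.51, 4.51 and 5.67 CPM after sham. The uninjured groups overlapped, both sham groups lay above them, and all sham cKO libraries lay below all sham control libraries.

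TNC rose in both arms, with log2 fold changes of 6.65 in control (SE 0.48, adjusted p = 1.25e-06) and 2.64 in cKO (SE 0.41, adjusted p = 0.00346). The difference was −4.01 (SE 0.57, adjusted p = 0.013). In bulk ventricles fewer cells of a type and less RNA per cell cannot be told apart. The TNC difference lay after sham, where cKO against control was −3.94 (adjusted p = 0.000668), and not in uninjured ventricles, where it was 0.08 (adjusted p = 0.969). Over the gene's 34 exons, 25 had lower coverage in every sham cKO library than in every sham control library. The counts derive from this same coverage, and exons of 1 gene are not replicates, so this is no separate evidence. The share over the exons of all genes was not computed. The difference ranged from −4.41 to −3.60 over 18 alternative analyses and passed in 14. It did not pass with the 12 libraries alone (adjusted p = 0.208), without sham cKO replicate 2 (0.0576) or 3 (0.057), or without sham control replicate 1 (0.0546). A second gene with the symbol TNC (ENSDARG00000078362, chr5:5708576-5831037) reached 0.772 to 1.63 CPM in sham control and 0.102 to 0.238 CPM in sham cKO, with a difference of −3.06 (adjusted p = 0.681).

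The selection rule for named genes took, in each direction, 12 genes with a symbol and a mean of at least 5 CPM, called genes first and then uncalled ones by unadjusted p. The other 4 called genes had means under 5 CPM and are named because there were so few. For prr11 (chr10:35250205-35257561), whose human counterpart is known from dividing cells, uninjured control gave 0.229, 0.488 and 0.373 CPM and sham control 1.88, 2.42 and 2.12 CPM. Uninjured cKO gave 1.89, 1.11 and 1.06 CPM and sham cKO 0.908, 1.07 and 0.996 CPM. The gene thus rose in control (log2 2.55, adjusted p = 0.000141) from a level that all uninjured cKO libraries exceeded (log2 1.89, adjusted p = 0.0242). Its difference of responses was −2.99 (SE 0.42, adjusted p = 0.013).

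The remaining 3 had a group with 0 counts in every library, so no fold is given. For zmp:0000000608 (chr16:21867161-21867872) uninjured control was at 0 in all 3 libraries, and sham control measured 0.69, 0.544 and 0.411 CPM. Uninjured cKO measured 0.198, 0.132 and 0.399 CPM and sham cKO 0.257, 0.447 and 0.425 CPM (adjusted p of the difference 0.013). These are levels of fractions of 1 CPM, and the cKO groups overlapped.

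For ftr25 (chr2:47927026-47929283), a member of the finTRIM family of fish, uninjured control measured 0.526, 0.695 and 0.38 CPM and sham control 0.00575, 0 and 0.019 CPM. In cKO the order was the opposite, with 0 in all uninjured libraries and 0.182, 0.269 and 0.349 CPM after sham (adjusted p = 0.013). For cyp2k8 (chr3:12784460-12802380), a cytochrome P450 gene, uninjured cKO was at 0 in all libraries and sham cKO at 0.242, 0.711 and 0.451 CPM, while the control groups overlapped between 0.12 and 0.354 CPM (adjusted p = 0.0295). All of prr11, zmp:0000000608, ftr25 and cyp2k8 missed the threshold with the 12 libraries alone, without sham cKO replicate 3 and without sham control replicate 1. The last of them also missed it without sham cKO replicate 2, without either other sham control replicate and with lane as a covariate.

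The list that holds TNC, of provisional and matricellular matrix genes, had 36 tested members, 25 with a negative and 11 with a positive difference, a median of −0.35 and 1 called member, TNC. At an unadjusted p below 0.05, 5 members were lower and 1 higher. In control 11 members rose and in cKO 9 did, with medians of 1.02 and 0.78, and the cKO count was 5 without sham cKO replicate 1 or uninjured cKO replicate 2. The median difference was −0.21 without sham control replicate 2, and the cKO median 0.41 without uninjured cKO replicate 3. Beside the counts of this and every later list stand the shares over all genes. At an unadjusted p below 0.05 these were 4.98% lower and 4.22% higher. Called as rising were 4.81% of all genes in control and 0.933% in cKO, and as falling 2.82% and 0.112%.

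Fibronectin, the main component of the matrix around the regenerating zebrafish epicardium, has a pair of genes, and these had differences of opposite sign. For fn1a (chr9:15362300-15424639) uninjured control measured 22.8 to 30.1 CPM and sham control 599.7, 352.2 and 547.6 CPM. Uninjured cKO measured 73.9, 53.2 and 62.8 CPM and sham cKO 356.2, 261.6 and 304.6 CPM. The uninjured cKO libraries lay above all uninjured control libraries, and the sham groups overlapped. The gene rose by 4.22 in control (SE 0.28, adjusted p = 7.14e-07) and by 2.28 in cKO (SE 0.25, adjusted p = 0.00027). The difference, −1.94 (SE 0.35), missed the threshold with an adjusted p of 0.0595, of which uninjured ventricles gave 1.24 (adjusted p = 0.0572) and sham ventricles −0.70 (adjusted p = 0.43). It passed in 6 of 18 alternatives.

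For fn1b uninjured control measured 274.5, 367.1 and 321.0 CPM and sham control 1316.7, 842.5 and 787.2 CPM. Uninjured cKO measured 217.0, 216.3 and 190.5 CPM, below every uninjured control library, and sham cKO 1710.4, 906.8 and 907.8 CPM. It rose in both arms, by 1.61 in control and 2.5 in cKO (adjusted p = 0.00244 and 0.000316). The difference of 0.88 (SE 0.39, unadjusted p = 0.0362) had an adjusted p of 0.509.

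The secreted protein gene adamtsl7, of the ADAMTS-like family of matrix proteins without protease activity, followed the pattern of TNC. It measured 0.22, 0.0689 and 0.426 CPM in uninjured control, 10.3, 10.6 and 12.0 CPM in sham control, 0.228, 0.229 and 0.25 CPM in uninjured cKO and 1.51, 2.32 and 1.95 CPM in sham cKO. The uninjured groups overlapped and the sham groups did not. It rose in both arms, by 5.52 and 3.03 (adjusted p = 1.99e-06 and 0.000721), and was lower in cKO after sham by 2.51 on the log2 scale (adjusted p = 0.0219). The difference of responses was −2.49 (SE 0.54, adjusted p = 0.12) and passed in 2 of 18 alternatives, DESeq2 and without uninjured control replicate 3.

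Of the other members, has2, which makes hyaluronan, measured 0.712 to 1.7 CPM in uninjured control and 5.94 to 9.95 CPM in sham control, against 1.2 to 1.89 CPM in uninjured and 1.49 to 3.34 CPM in sham cKO, with a difference of −1.82 (adjusted p = 0.323). The periostin gene postnb rose in both arms, by 3.56 in control and 2.95 in cKO (adjusted p = 3.11e-06 and 6.65e-05), from 18.9 to 29.9 CPM in uninjured control and 25.6 to 36.3 CPM in uninjured cKO. Its difference was −0.61 (SE 0.37, adjusted p = 0.676).

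**Figure D2:**
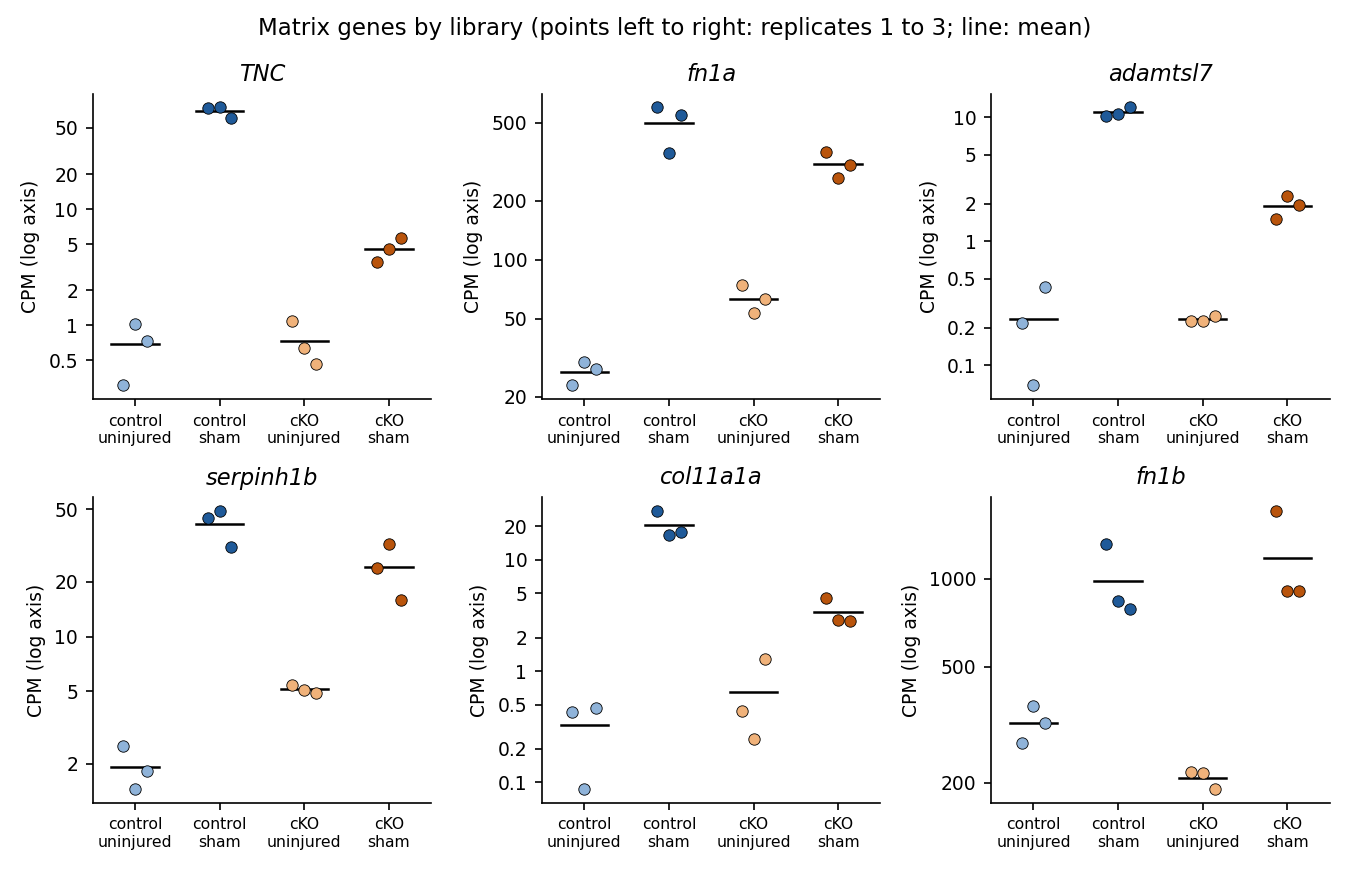
CPM on a log axis for 6 matrix genes, with 1 point per library, replicates 1 to 3 from left to right in each of the 4 groups, and the group mean as a line. Sham cKO lies below sham control for TNC, adamtsl7 and col11a1a, uninjured cKO lies above uninjured control for fn1a and serpinh1b, and fn1b has its lowest values in uninjured cKO.

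Among fibrillar and fibril-associated collagen genes, which encode the scar-forming fibres and the molecules on their surface, 15 of 21 had a negative difference, with a median of −0.91. None was called, 8 were lower at an unadjusted p below 0.05 and none higher. In control 12 rose and in cKO 5 did, with medians of 1.39 and 1.27. The median of cKO against control was 0.47 in uninjured ventricles and −0.4 after sham. Leaving out each library in turn moved the median difference between −1.18 and −0.60, the latter without uninjured control replicate 2. The control median was 2.49 and 2.11 without uninjured control replicate 1 or 3. The count that rose in cKO was 3 without any single sham cKO library and 2 without uninjured cKO replicate 2, and 5 were lower without sham cKO replicate 2, sham control replicate 1 or uninjured control replicate 2.

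The gene with the lowest p of the list was col11a1a, for a minor fibril collagen. It measured 0.432, 0.0876 and 0.466 CPM in uninjured control, 27, 16.8 and 17.7 CPM in sham control, 0.44, 0.247 and 1.27 CPM in uninjured cKO and 4.52, 2.88 and 2.84 CPM in sham cKO. All sham cKO libraries lay below all sham control libraries. The difference was −3.60 (SE 0.88, adjusted p = 0.176), with responses of 5.98 in control (adjusted p = 0.000191) and 2.38 in cKO (adjusted p = 0.0961). The type I collagen gene col1a2 measured 127.7 to 230.0 CPM in uninjured control and 240.5 to 427.2 CPM in uninjured cKO, without overlap but short of the threshold (log2 0.97, adjusted p = 0.186). After sham it measured 941.8 to 1489.4 CPM and 713.5 to 1053.2 CPM. Its difference of responses was −1.37 (SE 0.41, adjusted p = 0.306), and that of col1a1a, whose uninjured groups overlapped, −1.19 (SE 0.40, adjusted p = 0.36). The fibril-associated col12a1a rose in both arms, by 4.64 and 3.48 (adjusted p = 1.23e-06 and 6.65e-05), with a difference of −1.17 (adjusted p = 0.402).

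Enzymes and chaperones that modify, fold and crosslink collagen were divided. The list had 27 tested members with a median difference of −0.05, 6 of them lower at an unadjusted p below 0.05, none higher and none called. Those 6 act on procollagen in the endoplasmic reticulum: serpinh1b and serpinh1a, the collagen chaperones, p3h1, p3h3 and crtap of prolyl 3-hydroxylation, and plod3 of lysyl hydroxylation. Other members that act there, such as the p4ha genes of prolyl 4-hydroxylation, were not among the 6. Of the 27 members, 15 had a negative and 12 a positive difference. For serpinh1b uninjured control measured 2.5, 1.46 and 1.83 CPM and sham control 45.0, 49.0 and 31.0 CPM. Uninjured cKO measured 5.46, 5.11 and 4.93 CPM and sham cKO 23.8, 32.3 and 15.8 CPM. It rose in both arms, by 4.43 and 2.21 (adjusted p = 1.3e-05 and 0.00541), with a difference of −2.22 (SE 0.50, adjusted p = 0.144). In control 9 members of the list rose and in cKO 2 did, with 6 to 11 and 2 to 4 when 1 library was left out. The median difference then lay between −0.24, without uninjured control replicate 2, and 0.12, without uninjured cKO replicate 1, so its sign rested on single libraries.

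Among 25 matrix protease and inhibitor genes the median difference was −0.10, with 4 lower and 1 higher at an unadjusted p below 0.05 and none called. The median was −0.36 without sham control replicate 3 and 0.06 without uninjured cKO replicate 3, and 2 were lower without sham cKO replicate 3, uninjured cKO replicate 1 or sham control replicate 1. The urokinase-type activator gene plaua measured 0.0763, 0.207 and 0.0466 CPM in uninjured control, 1.61, 0.835 and 1.15 CPM in sham control, and 0.608 to 1.42 CPM over both cKO groups. It rose in control (log2 3.42, adjusted p = 0.000543) to levels that uninjured cKO already had, with a difference of −3.31 (SE 0.64, adjusted p = 0.0837). The gelatinase gene mmp9 was the member with a higher value, 1.86 (SE 0.80, adjusted p = 0.497).

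Markers of the cells that could hold these transcripts were compared in the same way. Of the 22 fibroblast markers, 18 rose in control and 9 in cKO, with medians of 1.75 and 1.25. The cKO count was 5 without any single sham cKO library and without uninjured cKO replicate 2. Their differences had a median of −0.71, 17 negative, 6 lower and 1 higher at an unadjusted p below 0.05. Without uninjured cKO replicate 1 the median was −0.44. In uninjured ventricles the 22 markers had a median of cKO against control of 0.52. There 7 were higher and 1 lower at that p, against 1494 and 1312 of all 20462 genes. After sham the markers had a median of −0.31, with 2 higher and 1 lower, against 763 and 882 of all genes. Their summed level was 1202.9 to 1812.6 CPM in uninjured control and 5434.6 to 8176.7 CPM in sham control, against 1634.8 to 2696.4 CPM in uninjured cKO and 4644.3 to 6148.5 CPM in sham cKO. Several collagens are on both lists. The part of these cells' abundance in the matrix results was not tested.

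Epicardial markers gave a different median. Of 20 tested, 10 rose in control and 7 in cKO, 4 without sham cKO replicate 1, and the median difference was 0.26, with 3 lower and 2 higher at an unadjusted p below 0.05. It was 0.15 without uninjured cKO replicate 2, and those counts ranged from 1 to 4 and 1 to 5 with 1 library left out. With all libraries, tcf21, the deleted gene itself, was 1 of the 3 lower, and fn1b, also on the matrix list, was 1 of the 2 higher. The summed level of the 20 markers was 4378.0 to 5160.4 CPM in sham control and 4772.8 to 6290.9 CPM in sham cKO. The retinoic acid enzyme gene aldh1a2, induced in activated epicardium, measured 38.2 to 65.1 CPM in uninjured control and 68.2 to 77.0 CPM in uninjured cKO, against 122.4 to 158.2 CPM and 88.2 to 155.7 CPM after sham. Its difference was −0.81 (adjusted p = 0.439), and that of tbx18, an epicardial transcription factor gene, −1.12 (adjusted p = 0.464), from 3.98 to 6.32 CPM in uninjured control and 8.1 to 12.7 CPM in uninjured cKO. The Wilms tumour factor gene wt1b rose in both arms, by 1.85 in control and 2.98 in cKO (adjusted p = 0.0128 and 0.0018), with a difference of 1.13 (adjusted p = 0.585).

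Cell cycle genes had the most negative median of the 37 lists examined. Of 46 tested genes 44 had a negative difference, the median was −1.71, 29 were lower at an unadjusted p below 0.05 and none higher. None was called at an adjusted p below 0.05. In control 24 rose after sham and none fell, with a median of 1.65, while in cKO none was called in either direction and the median was −0.06. In uninjured ventricles the median of cKO against control was 1.22, with 34 of the 46 higher at an unadjusted p below 0.05 against 7.3% of all genes. After sham it was −0.28.

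The summed level of these genes was 224.1, 173.9 and 129.2 CPM in uninjured control and 437.0, 394.3 and 355.1 CPM in sham control. In cKO it was 626.8, 288.6 and 215.1 CPM in uninjured and 315.2, 468.1 and 395.5 CPM in sham ventricles. The sham groups overlapped, and uninjured cKO replicate 1 had the highest sum of the 12 libraries. The count of genes that rose in control was 14 without sham control replicate 1 or 2 or uninjured control replicate 3, and 15 without uninjured control replicate 2. Without uninjured cKO replicate 1 the median difference was −0.85, 37 genes were negative, 22 were lower at an unadjusted p below 0.05 and the cKO median was 0.68. Leaving out any of the other 11 libraries gave a median between −2.08 and −1.44.

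Kinesin kif11, which pushes spindle poles apart, had the lowest p of the list. It measured 1.75, 1.32 and 1.64 CPM in uninjured control, 7.36, 6.98 and 6.85 CPM in sham control, 5.89, 1.95 and 4.50 CPM in uninjured cKO and 2.69, 3.29 and 3.91 CPM in sham cKO. Sham control lay above every other library, and the cKO groups overlapped. The difference was −2.49 (SE 0.43, adjusted p = 0.055).

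The mitotic kinase gene cdk1 measured 2.31, 2.22 and 1.48 CPM in uninjured control and 8.78, 10.3 and 8.13 CPM in sham control, against 14.8, 4.76 and 4.1 CPM and 3.51, 6.46 and 4.14 CPM in cKO. Its difference was −2.92 (SE 0.54, adjusted p = 0.0748). Without uninjured cKO replicate 1 the difference was −2.09 and passed (adjusted p = 0.0252). The nuclear import factor gene kpna2, often high in dividing cells, was at 4.85, 3.98 and 2.57 CPM in uninjured and 17.0, 17.5 and 16.6 CPM in sham control, against 16.0, 4.2 and 6.41 CPM in uninjured and 5.87, 5.73 and 6.78 CPM in sham cKO. Its difference was −2.70 (SE 0.52, adjusted p = 0.0837), of which uninjured ventricles gave 1.22 and sham ventricles −1.48. Other members of the cell cycle list had differences of −3.05 for the mitotic kinase gene aurka (adjusted p = 0.0972), −2.75 for the cyclin gene ccnb1 (adjusted p = 0.109) and −2.79 for cdc20 of the anaphase machinery (adjusted p = 0.13). The replication clamp gene pcna had one of −0.70 (adjusted p = 0.637).

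**Figure D3:**
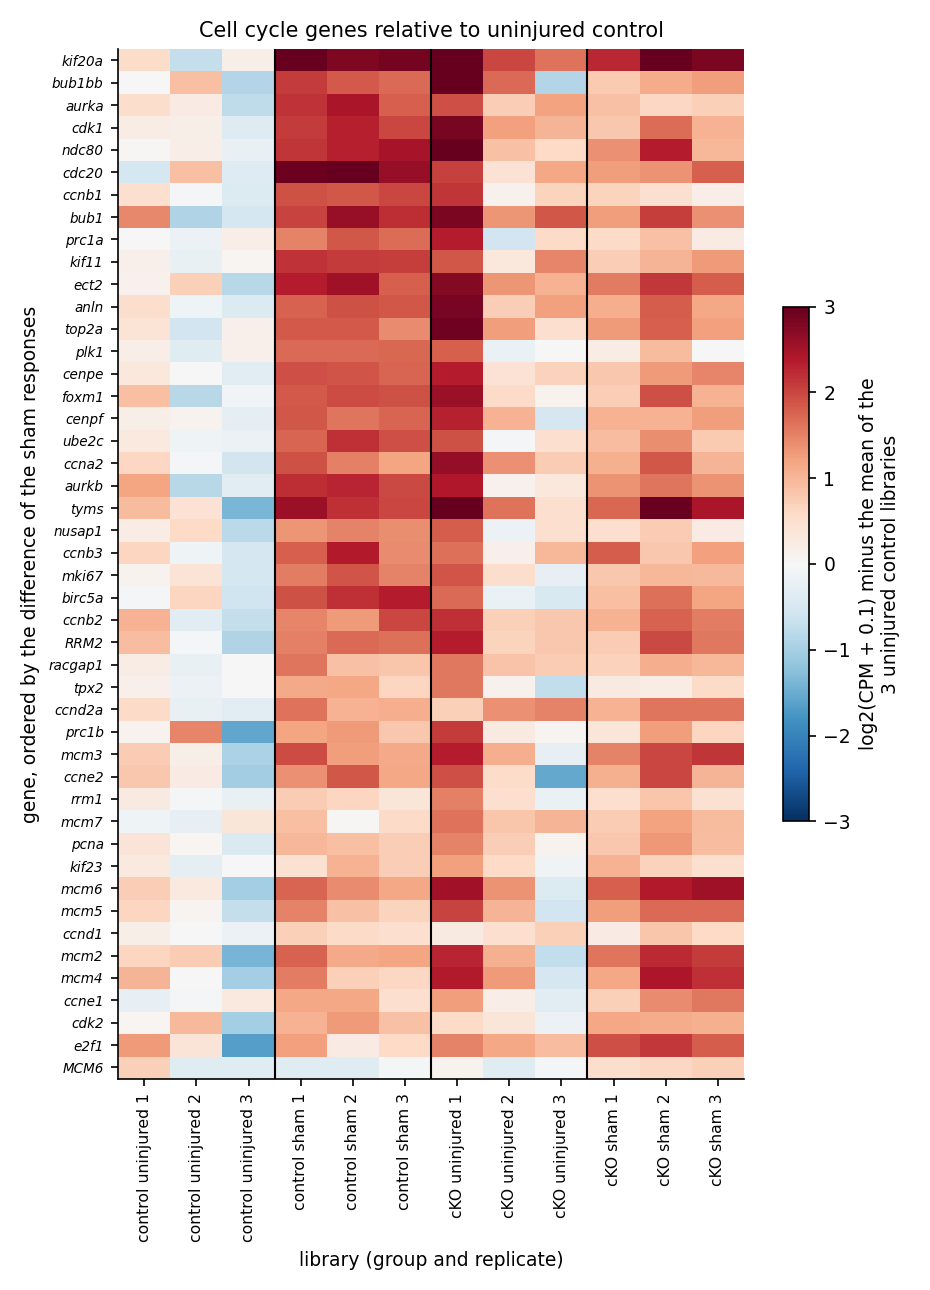
Log2(CPM + 0.1) of 46 cell cycle genes in the 12 libraries, relative to the mean of the 3 uninjured control libraries, with colours limited to ±3 and genes ordered by the difference of responses. Uninjured cKO replicate 1 and the sham control libraries are darkest in the upper rows, while sham cKO libraries are paler there and reach similar shades in the lower rows.

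Most secretory pathway genes had a negative difference as well. Of 41 genes of the unfolded protein response and protein export, 29 had a negative difference, with a median of −0.18, which was −0.31 without uninjured control replicate 2, and with 6 lower and 1 higher at an unadjusted p below 0.05. In control 8 rose, 5 without sham control replicate 2, and in cKO none was called. The median of cKO against control was −0.13 in uninjured ventricles and −0.32 after sham, unlike that of the cell cycle list. After sham 34 of the 41 were negative, with 11 lower and 1 higher at an unadjusted p below 0.05. Of all 20462 genes 882 were lower and 763 higher there. The receptor gene kdelr2b, which returns chaperones to the endoplasmic reticulum, measured 14.2, 15.4 and 14.9 CPM in uninjured control, 33.8, 30.3 and 32.9 CPM in sham control, 18.1, 14.8 and 15.0 CPM in uninjured cKO and 20.3, 18 and 19.2 CPM in sham cKO. It rose in control by 1.13 (adjusted p = 0.000274), the cKO response was 0.26 (adjusted p = 0.566), and the difference of −0.86 (SE 0.21) had an adjusted p of 0.164. For creb3l1, a membrane-bound transcription factor of collagen-secreting cells in mammals, the uninjured groups overlapped between 0 and 0.382 CPM, sham control measured 4.23, 4.99 and 5.15 CPM and sham cKO 1.26, 0.867 and 0.579 CPM, with a difference of −2.85 (adjusted p = 0.393).

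Other genes at the head of the negative list after TNC were not called either. The peroxidase gene gpx8, whose protein resides in the endoplasmic reticulum, measured 2.45, 1.58 and 2.56 CPM in uninjured control, 11, 10.2 and 11.6 CPM in sham control, 3.58, 4.05 and 5.67 CPM in uninjured cKO and 5.71, 5.94 and 6.01 CPM in sham cKO. No group overlapped another. The difference was −1.91 (SE 0.33, adjusted p = 0.055), and it passed in 7 of 18 alternatives.

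The zinc transporter gene slc39a7 lay at 18.6 to 21.8 CPM in sham control and 6.76 to 11.5 CPM in the other groups, with a difference of −1.37 (SE 0.26, adjusted p = 0.0837). Values for ywhah, rbm4.1, sox4b, myo5ab, fscn1a and rcn1 were between −1.47 and −1.03, with adjusted p between 0.109 and 0.128. Of these, sox4b, a transcription factor gene, was higher in uninjured cKO than in uninjured control (log2 1.42, adjusted p = 0.0242) and nearly level after sham (−0.06).

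Signalling genes outside these lists gave single low values. The activin subunit gene inhbaa measured 0.147 to 0.229 CPM in uninjured and 1.97 to 3.36 CPM in sham control, against 0.383 to 1.04 CPM and 0.34 to 1.12 CPM in cKO, with a difference of −4.09 (adjusted p = 0.055). The retinoic acid-binding protein gene crabp2a measured 0.113 to 0.469 CPM and 6.33 to 7.63 CPM in control, against 0.499 to 1.2 CPM and 1.03 to 1.38 CPM in cKO, with a difference of −3.92 (adjusted p = 0.0767). In both genes uninjured cKO lay above uninjured control and sham cKO below sham control. Medians of their lists were −0.03 over 39 TGF-beta and BMP genes and −0.02 over 29 retinoic acid genes. In both lists 2 members were lower and 2 higher at an unadjusted p below 0.05, against 4.98% and 4.22% of all genes. With 1 library left out the medians lay between −0.10 and 0.02 and between −0.28 and 0.06.

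**Figure D4:**
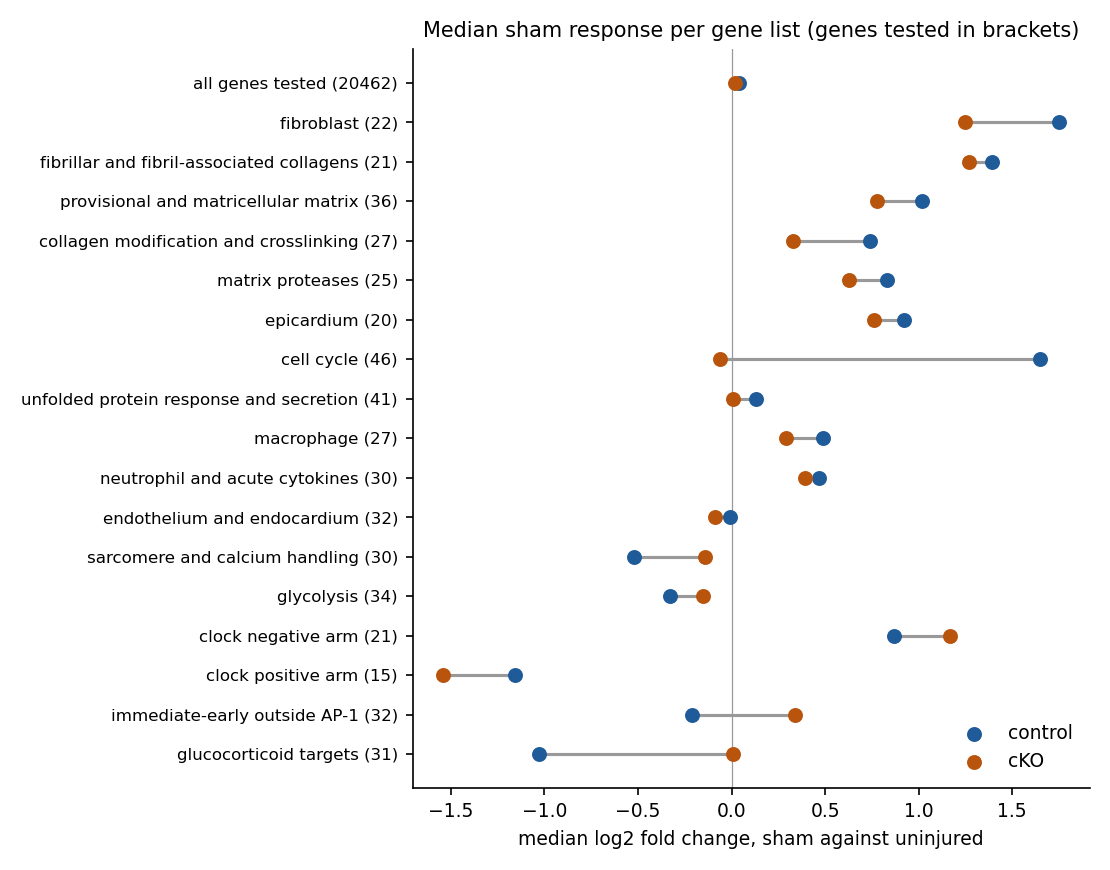
Median log2 fold change of sham against uninjured in control (blue) and cKO (orange) for 17 gene lists and all tested genes, with the number of genes in brackets. The widest gaps are those of cell cycle, 1.65 against −0.06, and glucocorticoid targets, −1.03 against 0.01, and the medians of all genes lie at 0.04 and 0.02. A gap between medians is not the median difference of the text. Fibrillar and fibril-associated collagens have medians of 1.39 and 1.27 and a median difference of −0.91.

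On the positive side no gene of the selection rule passed the test. The 12 named had unadjusted p-values from 8.66e-05 to 0.000736 and adjusted ones from 0.0837 to 0.166. All had a negative control response, which passed in all but sh2d3cb and nfil3-6. All had a positive cKO response except derl3, at −0.21, and none passed in cKO. Negative control responses were common among all 863 genes with a higher response at an unadjusted p below 0.05. Of these, 602 had opposite signs in the arms, with a control median of −0.82. Another 190 had the same sign and a smaller size in cKO, with a control median of −1.02.

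The first was pmp22b, for a small membrane protein related to that of peripheral myelin. It measured 408.9, 206.0 and 365.8 CPM in uninjured control and 106.4, 91.2 and 75.8 CPM in sham control, against 135.3, 162.7 and 83.4 CPM and 151.9, 97.3 and 152.1 CPM in cKO. Uninjured control lay above all other libraries. The gene fell in control by 1.84 on the log2 scale (adjusted p = 0.000602), and the difference was 1.92 (SE 0.37, adjusted p = 0.0837).

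The F13A1 gene on chromosome 24 (ENSDARG00000045453), whose symbol another gene shares and which belongs with a coagulation factor subunit, measured 16.1, 32.8 and 40.0 CPM in uninjured control and 0.0575, 1.27 and 2.15 CPM in sham control. In cKO it measured 0.58, 1.17 and 2.68 CPM before and 8.82, 2.81 and 11 CPM after sham, so the arms ran in opposite directions without overlap within either. The difference was 7.02 (SE 1.38, adjusted p = 0.101). Next came acer2 (2.25), emp3a (1.49), derl3 (1.25), rasgef1ba (3.46), ipo13a (0.97), sh2d3cb (2.95), tpk2 (1.06), nfil3-6 (3.16) and limd1a (0.98), all as log2 differences. Sham control had the lowest mean of the 4 groups in each of these 9. Choosing genes by a positive difference favours a low sham control, so this is not taken as particular to them.

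Targets of the glucocorticoid receptor, which mediates the response to the stress hormone cortisol, had their lowest summed level in sham control. Single members were divided: the control response was positive for 11 and negative for 20. After sham, cKO against control was positive for 22 and negative for 9, with 7 higher and 3 lower at an unadjusted p below 0.05. Over all 20462 genes that comparison was positive for 10148 and negative for 10269, with 763 higher and 882 lower at that p. Of 31 tested, 22 had a positive difference, the median was 0.58, and 5 were higher and 1 lower at an unadjusted p below 0.05. None was called. In control 6 fell and 1 rose, with a median of −1.03 that was −0.21 without uninjured control replicate 3, and in cKO 1 fell and 1 rose, with a median of 0.01. Their summed level was 4249.1, 6324.6 and 10103.3 CPM in uninjured control, 2148.2, 2439.4 and 3035.2 CPM in sham control, 6894.0, 4500.8 and 5102.6 CPM in uninjured cKO and 6518.3, 3185.3 and 5689.2 CPM in sham cKO. No library of another group came down to the sham control range. Leaving out each library moved the median difference between 0.53 and 0.86.

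For klf9, a transcription factor gene that responds directly to glucocorticoids, uninjured control measured 6.51, 58.5 and 152.4 CPM and sham control 4.57, 3.78 and 1.9 CPM. Uninjured cKO measured 64.4, 21.7 and 52.5 CPM and sham cKO 86.3, 21.4 and 61.9 CPM. The difference was 4.70 (SE 1.12, adjusted p = 0.166), and uninjured control replicate 1 lay close to the sham control libraries. For fkbp5, a co-chaperone gene that restrains the receptor, sham control measured 120.8, 166.3 and 5.37 CPM and the other 9 libraries between 181.1 and 2340.8 CPM, with a difference of 4.02 (SE 1.35, adjusted p = 0.368). The cortisol-inactivating enzyme gene hsd11b2 had a difference of 1.52 (adjusted p = 0.346).

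Clock genes varied with the groups as well. Among 21 genes of the negative limb of the circadian clock the median difference was 0.48, 5 were higher and none lower at an unadjusted p below 0.05, and none was called. Without uninjured control replicate 1 the median was −0.09, and without sham cKO replicate 1, 2 or 3 it was 0.81, 0.12 and 0.03. In control 2 members rose and 4 fell, and in cKO 5 rose and 3 fell. With 1 library left out, 0 to 8 rose in control and 3 to 9 in cKO. The repressor gene nr1d1 measured 3.69, 4.70 and 4.46 CPM in uninjured control, 9.80, 9.78 and 12.4 CPM in sham control, 14.4, 3.5 and 6.68 CPM in uninjured cKO and 42.6, 79.3 and 84.9 CPM in sham cKO. All sham cKO libraries lay above all others. It rose in cKO by 3.07 (adjusted p = 0.0018), against 1.31 in control (adjusted p = 0.067), and the difference of 1.76 (SE 0.58) had an adjusted p of 0.361.

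The period gene per1a, which is also on the list of glucocorticoid targets, behaved likewise. It measured 34.4, 54.1 and 66.8 CPM in sham cKO and 2.34 to 12.6 CPM in the other 9 libraries. Its difference was 2.05 (adjusted p = 0.4). A related repressor, nr1d2a, differed in shape: sham control was lowest, at 36.4, 31.8 and 26.9 CPM, and the difference was 3.46 (SE 0.88, adjusted p = 0.199). Over 15 genes of the positive limb the median difference was −0.13, with medians of −1.16 in control and −1.54 in cKO. It was −0.57 without uninjured control replicate 3 and 0.16 without uninjured cKO replicate 3. In control 5 of the 15 fell and 1 rose, and in cKO 5 fell and none rose. Of all genes 2.82% fell in control and 0.112% in cKO. The kinase gene stk35, named from earlier results, had a difference of 2.79 (adjusted p = 0.361).

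Immediate-early genes outside the AP-1 family, which respond within minutes to handling and signals, had a median difference of 0.84 over 32 genes. At an unadjusted p below 0.05, 6 were higher, among them csrnp1b (2.81), nr4a1 (3.38) and socs3a (3.36), and 1 was lower. The summed level was 455.2, 2408.5 and 2188.7 CPM in uninjured control, 986.5, 668.7 and 514.1 CPM in sham control, 1397.4, 1362.1 and 1296.1 CPM in uninjured cKO and 2149.7, 1292.3 and 1618.3 CPM in sham cKO. Within uninjured control, replicate 1 lay below all other libraries and replicates 2 and 3 above. The median was 0.02 without uninjured control replicate 3, 0.41 without uninjured control replicate 2 or sham cKO replicate 1, and 1.14 without uninjured control replicate 1. Over 14 AP-1 genes it was 0.13, and between −0.25, without uninjured control replicate 2, and 0.52, without sham control replicate 1.

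**Figure D5:**
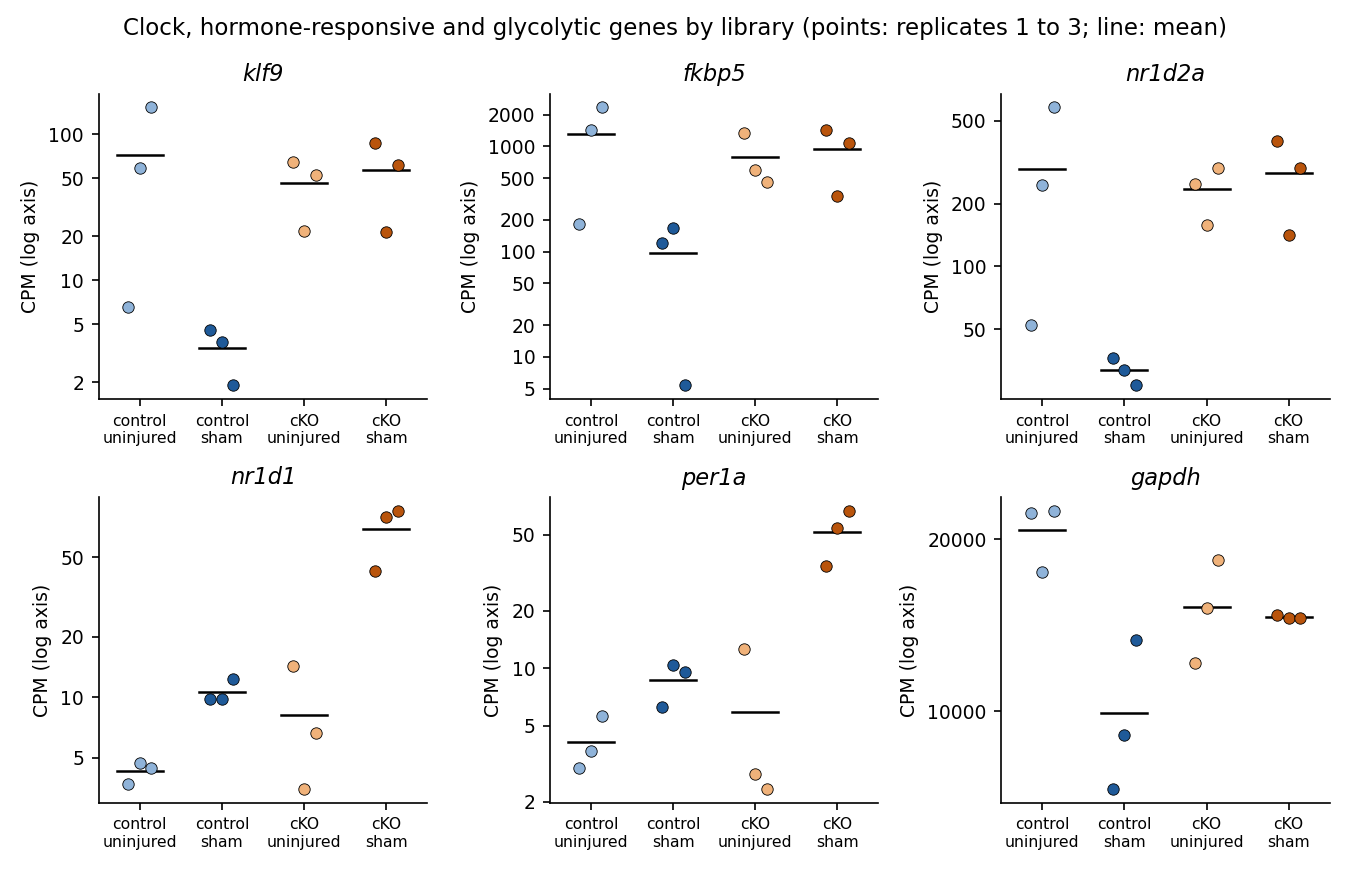
CPM on a log axis for klf9, fkbp5, nr1d2a, nr1d1, per1a and gapdh, with 1 point per library, replicates 1 to 3 from left to right, and the group mean as a line. Sham control holds the lowest values of klf9, fkbp5 and nr1d2a, sham cKO the highest of nr1d1 and per1a, and uninjured control replicate 1 lies below the other uninjured libraries for klf9, fkbp5 and nr1d2a.

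Most sarcomere and glycolytic genes had positive differences of small size. Of 30 sarcomere and calcium handling genes, 26 had a positive value, with a median of 0.32 and 3 higher at an unadjusted p below 0.05. In control 3 fell, and in cKO none was called. Without uninjured control replicate 1 the median was 0.21. The creatine kinase gene ckma measured 4158.9, 4433.7 and 4811.8 CPM in uninjured control and 2491.7, 2523.5 and 2591.3 CPM in sham control, against 4474.9 to 4977.9 CPM and 3994.6 to 4200.7 CPM in cKO. Sham control lay below all other libraries. The difference was 0.64 (SE 0.21, adjusted p = 0.351). This gene is also on the skeletal muscle list, of which 17 of 18 members had a higher value in sham cKO than in sham control. Of all 20462 genes 10148 did. Apart from acta1a, acta1b and ckma, the members of that list had low levels. The part of skeletal muscle in the result was not tested.

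Of 34 glycolytic genes 25 had a positive difference, with a median of 0.21, 4 higher and 1 lower at an unadjusted p below 0.05. Without uninjured control replicate 1 the median was 0.08, 16 were negative and 2 higher, and without uninjured cKO replicate 3 the median was 0.09. Their summed level was 39476.4 to 54013.0 CPM in uninjured control and 25489.6 to 29925.7 CPM in sham control, against 40928.0 to 45850.8 CPM and 38536.8 to 40423.4 CPM in cKO. Sham control was the lowest group throughout. The enzyme gene gapdh fell in control (log2 −1.06, adjusted p = 0.0151) and had a cKO response of −0.06 (adjusted p = 0.981), with a difference of 1.00 (SE 0.35, adjusted p = 0.387).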

How the data were processed

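RNA of 18 libraries had been purified as poly(A) RNA and sequenced by a commercial provider, per the labels' protocols. The submitters' processing notes name FastQC 0.11.9, Trim Galore 0.6.10, HISAT2 2.1.0 and StringTie 2.1.1 with the build GRCz11, and per the file headers StringTie quantified each library against the Ensembl annotation. The deposited values are estimated counts, which the authors rounded and left unscaled. Summed transcript coverage times length, divided by 75, rebuilt 100% of the deposited counts of 25107 genes to within 1 count, so a count stands for aligned bases rather than a read and no counting intervals are given.

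Counts were filtered with filterByExpr by group (20462 genes left), scaled by TMM and tested with edgeR 4.0.16 in R 4.3.3 (quasi-likelihood, robust, two-sided) in a joint model of the 6 groups and 18 libraries, adjusted by Benjamini and Hochberg over all genes. CPM values were computed from the deposited counts with TMM-scaled library sizes. Log2 fold changes come from the fit on deposited counts, and their SE is the absolute log2 value over the square root of F. Symbols came from supplied name tables, and coordinates from the GRCz11 library files. The fit was checked on simulated counts. Alternatives were DESeq2 1.42.0 (Wald test, size factors), no filter, the 12 libraries alone, lane as a covariate, a replicate block and each library left out.

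The 37 gene lists, the comparison and the genes TNC, adamtsl7, nr1d1, per1a and stk35 were chosen with earlier results of these data known. Genes were named by the rule given with the called genes, with tcf21 as the target, and list members where a list is described. Genes outside it (those under 5 CPM) were named after their values were seen. Lists are described by counts and medians and were not tested as sets.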

Additional observations from a re-analysis of the deposited data

Results flagged for a closer look

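The sham response differed between cKO and control, by the test of the difference itself, for 5 genes. The adjusted p was 0.013 for TNC (ENSDARG00000021948), prr11, zmp:0000000608 and ftr25, and 0.0295 for cyp2k8. TNC was lower in cKO after sham. The genes prr11 and zmp:0000000608 were higher in uninjured cKO than in uninjured control (adjusted p = 0.0242 and 0.00739). The genes ftr25 and cyp2k8 had 0 counts in all uninjured cKO libraries, and their highest level in any of the 12 libraries was 0.695 and 0.711 CPM.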

How the results depend on the processing

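The difference of responses passed the test for 5 genes. With the 12 libraries alone it was 0 (1265 at an unadjusted p below 0.05), with DESeq2's Wald test 247, and with DESeq2 size factors, no filter or lane as a covariate 5, 6 and 4. Leaving out 1 library gave 0 to 65. It was 0 without sham cKO replicate 3 (1529 at an unadjusted p below 0.05) or sham control replicate 1 (1677), and 65, 57, 41, 27, 23 and 15 without uninjured control replicate 3 or 1, uninjured cKO replicate 3, 2 or 1, or uninjured control replicate 2. In control 1562 genes responded, against 676 with the 12 libraries alone, 2658 with DESeq2's Wald test, 901 with lane as a covariate and 758 to 2221 with 1 library left out. In cKO 214 responded, against 70, 589, 182 and 102 to 289. The causes were not tested.

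Nothing in the labels says that a replicate number marks a shared clutch or day, and the numbers were not taken to pair the samples, since only 7 of 18 same-numbered pairs of different groups had correlations over 0.1 (range −0.0229 to 0.198). These 7 include all 3 pairs of uninjured and sham control, at 0.103 to 0.112, and no other-numbered pair exceeded 0.0995 (lowest −0.217). Of the 12 libraries 10 correlated best on average with their own number, a hint from the data and not from the design. With the replicate block 21 genes passed for the difference, 3 higher and 18 lower, including all 5. Among the named genes fn1a (adjusted p = 0.0315), F13A1 (0.0315), gpx8 (0.0389), kpna2 (0.0389) and fscn1a (0.0388) passed with the block and missed the threshold without it.

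No gene given here with a difference of responses reversed it in any of the 18 alternatives, though medians of lists did where stated. DESeq2 size factors moved the median of all genes by at most 0.03 on the log2 scale. Of the called genes, ftr25, cyp2k8 and zmp:0000000608 lay below 1 CPM in every library, where depth limits precision most.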

Other observations

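Inflammatory and stromal lists outside the report had median differences between −0.47 and 0.15 and no called member. The 27 macrophage markers had a median of −0.29, with 23 negative, 2 lower and 1 higher at an unadjusted p below 0.05. It was −0.70 without uninjured control replicate 3 and −0.11 without replicate 1, and 15 to 24 were negative with 1 library left out. Among them apoeb, a lipid carrier gene, measured 0.419 to 0.695 CPM in uninjured control and 0.969 to 2.73 CPM in uninjured cKO, 18.5, 35.7 and 25.3 CPM in sham control and 13.8, 1.95 and 2.43 CPM in sham cKO, with a difference of −3.74 (SE 0.95, adjusted p = 0.198). The transcription factor gene mafb had 2.81, 42.3 and 52.7 CPM in uninjured control and 1.11, 0.291 and 0.0886 CPM in sham control, against 20.9, 2.00 and 0.258 CPM and 20.5, 5.89 and 37.5 CPM in cKO, with a difference of 7.49 (SE 2.00, adjusted p = 0.23). Medians were 0.15 over 30 neutrophil and cytokine genes, −0.13 over 32 endothelial and endocardial genes, 0.07 over 22 mural cell genes, −0.15 over 35 interferon response genes and −0.47 over 23 T and cytotoxic cell genes. Leaving out 1 library moved them between −0.26 and 0.30, −0.18 and 0.02, −0.17 and 0.34, −0.35 and 0.06, and −0.88 and −0.10, across 0 for all but the last.

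Among lists of metabolism and stress, medians were −0.05 over 38 fatty acid oxidation genes, −0.30 over 30 cholesterol synthesis genes, 0.27 over 27 heat shock chaperone genes and 0.13 over 24 cardiomyocyte stress genes. With 1 library left out they ranged from −0.39 to 0.07, −0.39 to −0.12, 0.09 to 0.63 and −0.03 to 0.34. The lowest fatty acid oxidation median was that without uninjured control replicate 1, where 12 genes were lower at an unadjusted p below 0.05 against 3 with all libraries, and the highest that without uninjured control replicate 3. The 45 epicardial growth factor genes had a median of 0.10 and the 6 PAR-bZIP clock output genes one of 0.37, with ranges of −0.12 to 0.22 and 0.13 to 0.52.

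Markers of neighbouring tissues were compared for what dissection could bring along. Medians were 0.37 over 10 atrial, 0.12 over 9 bulbus, 1.2 over 18 skeletal muscle, 0.30 over 12 liver, 0.44 over 13 skin and gill and −0.28 over 14 thymus genes. Leaving out 1 library moved them between 0.16 and 0.49, −0.09 and 0.28, 0.11 and 1.72, 0 and 0.54, 0.27 and 0.84, and −0.47 and 0.37. For skeletal muscle the lowest was without sham cKO replicate 1. After sham the skeletal muscle genes had a median of cKO against control of 0.96, with 17 of 18 higher in cKO, 6 at an unadjusted p below 0.05 and none called. Of all 20462 genes 10148 were higher in cKO after sham, 763 of them at an unadjusted p below 0.05. The 17 red blood cell genes had a median of 0.40, which was −0.41 without uninjured control replicate 1, whose sum was 5570.5 CPM against 2342.5 and 938.0 CPM in the other uninjured control libraries. The 13 oestrogen response genes, listed because 4-Hydroxytamoxifen binds the oestrogen receptor, had a median of 1.00, 10 positive and 2 higher at an unadjusted p below 0.05, with summed levels of 45.0, 23.7 and 37.1 CPM in sham control and 42.2, 46.5 and 48.8 CPM in sham cKO. In uninjured ventricles the sums were 65.8, 59.2 and 51.0 CPM in control and 53.2, 39.8 and 25.4 CPM in cKO. The median of cKO against control was −0.4 there, with 11 of 13 negative against 10175 of all 20462 genes, and 0.58 after sham. The median difference of these genes was 0.35, with 6 negative, without uninjured control replicate 3. It was 0.40, 0.53 and 0.50 without sham cKO replicate 3, sham control replicate 1 or uninjured control replicate 2.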
